A study of Mus musculus with 3 samples.

Results

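The data cover 5 genes that encode proteins of the melanosome matrix and membrane: Pmel, Mlana, Gpnmb, Bace2 and Gpr143. They were followed as chromatin accessibility in single nuclei of mouse skin. Each gene was represented by every deposited feature, a stretch of 500 bp in which reads were counted, that overlapped its annotated mm10 body or the 2 kb on either side. The 5 windows held 122 of the 315694 features, and 18015 protein-coding genes had at least 1 feature in such a window. The conditions were measured by single-nucleus ATAC-seq, which counts insertions of a transposase into open DNA. The UVB nuclei came from 24 mice irradiated on the back with 2.2 mJ/cm2 in 3 exposures. The anagen nuclei came from 8 mice in which depilation with Nair cream had started hair growth. The telogen nuclei came from 12 mice in the resting phase of the hair cycle, with neither treatment. All mice carried Dct-rtTA and Tre-H2B-GFP and drank doxycycline, 20 mg per 100 ml, for 5 days. Their age was given as 7 weeks in the treatment text and as 8 weeks in the sample characteristics. The Dct promoter drove the histone label by which nuclei of dorsal skin had been sorted, so the sort and the gene Dct are linked. Telogen and anagen mice shared a library that held no UVB nuclei, so an effect of UVB and one of the library cannot be told apart. The same holds for anagen growth and depilation. Each condition was 1 sample of pooled animals, so no test between conditions was possible and every interval is for counting error only. The intervals are too narrow even for that, because counts come in pairs.

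Melanosomes are the organelles in which melanocytes make and store pigment. PMEL is cut in the young organelle into fragments that form amyloid fibrils, the matrix on which melanin settles. BACE2, an aspartyl protease, cuts PMEL close to the membrane and releases the part that forms fibrils. MLANA is a small membrane protein that binds PMEL and is needed for its normal maturation. GPNMB is a membrane glycoprotein related to PMEL in sequence and is found on melanosomes and in phagocytic cells. GPR143 is a G protein-coupled receptor of the melanosome membrane, and its loss in human ocular albinism gives few and oversized melanosomes. Several of these genes are known targets of MITF, the transcription factor that governs the melanocyte lineage.

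The promoter of Gpnmb is shown because it was the 1 member promoter matched in the table used, and the strongest feature of that gene lay on it. The sequence is RefSeq's GRCm38.p6, chr6:49036268-49036567 on the plus strand, 250 bases before and 50 after the annotated start. Capitals mark 2 matches to motifs of transcription factor families.
Gpnmb promoter: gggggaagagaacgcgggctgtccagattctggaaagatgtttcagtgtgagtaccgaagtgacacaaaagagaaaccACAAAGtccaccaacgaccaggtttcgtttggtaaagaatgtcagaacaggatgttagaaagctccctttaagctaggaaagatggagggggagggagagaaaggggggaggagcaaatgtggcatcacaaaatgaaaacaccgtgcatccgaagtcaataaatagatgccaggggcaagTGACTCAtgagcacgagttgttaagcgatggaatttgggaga
Both strands were searched for the AP-1 motif TGANTCA, the SOX motif ACAAAG, the E-boxes CACGTG and CATGTG and the CRE motif TGACGTCA. The AP-1 motif was matched once, as TGACTCA with its first base at position 9 from the start. The SOX motif was matched once, with its first base at position -172. The E-boxes and the CRE motif were not found in these letters. Of 32851 mouse promoters of this length, 7.81% held the AP-1 motif, 18.7% held ACAAAG, 7.15% held CACGTG, 14.15% held CATGTG and 1.79% held TGACGTCA. A match is a description of the letters and not of a bound site.

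After each barcode was counted once per condition there were 6553 UVB, 3753 anagen and 2042 telogen nuclei. They held 16182770, 10397896 and 5225945 counts in all, a median of 1726, 1577 and 1650 for each nucleus. Nuclei were clustered without the features of the 5 genes, and 13 clusters were named from lists of marker genes that did not include them. Melanocyte-like nuclei made up 2952 of the UVB nuclei (45.05%), 1089 of the anagen nuclei (29.0%) and 220 of the telogen nuclei (10.8%). They fell into 2 clusters of unequal make-up. Cluster 6, in which 13 of 13 melanocyte markers were at least 2-fold above the other nuclei, held 39 UVB, 765 anagen and 3 telogen nuclei. Cluster 1, with 8 of 13 such markers, held 2913, 324 and 217. Its next list, Schwann cell markers, came close to the melanocyte list, with median log2 folds of 0.85 against 1.11. Values of the class are therefore mostly cluster 1 in UVB and telogen and mostly cluster 6 in anagen, and median counts per nucleus also differed, at 1691 in UVB, 2426 in anagen and 1384 in telogen. Dct itself was alike in the 3 sets of melanocyte-like nuclei, at 922 CPM (counts per 1000000 counts of the nuclei summed) in UVB, 882 in anagen and 894 in telogen. When nuclei were clustered without UVB, 740 anagen and 2 telogen nuclei were named melanocyte-like. The telogen class of 220 thus depended on clustering together with the UVB nuclei. Barcodes seen in more than 1 condition numbered 506. The 13 melanocyte markers summed to 3405 CPM in UVB, 5197 in anagen and 3142 in telogen, none of them at 0. Markers of other cells were present in the class too. The 10 Schwann cell markers summed to 800.5, 549 and 638 CPM, none at 0, and the 12 keratinocyte markers to 547, 410 and 423 CPM, with 6 at 0 in telogen. The part of such nuclei in the results was not tested.

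In melanocyte-like nuclei the whole windows of the matrix protein Pmel and its partner Mlana had nearly the same accessibility in the 3 conditions. Those of the protease Bace2, the receptor Gpr143 and Gpnmb had their highest values in anagen. Among them the anagen excess over UVB was smallest for Gpnmb, and that over telogen was smallest for Gpr143. Most Pmel counts lay in features shared with neighbouring genes. Its 11 features in no other gene body had 70.3 CPM in UVB, 125 in anagen and 50.7 in telogen. The Bace2 window had 196 CPM in UVB, 438 in anagen and 191 in telogen. UVB and telogen lay together and anagen stood above both. This placing of telogen depended on how the nuclei were chosen. Among nuclei of any class with counts in 3 or more melanocyte markers, UVB over telogen was 2.61 (1.98 to 3.52) for Bace2. Anagen over telogen was 6.21 (4.71 to 8.34) for Bace2 there. The other members moved too, with UVB over telogen of 3.40 for Gpnmb, 3.435 for Mlana, 1.82 for Pmel and 0.966 for Gpr143. Gpr143 had 30.05 CPM in UVB, 75.95 in anagen and 50.7 in telogen, with anagen highest in value. The telogen value rested on 17 counts, and its interval overlapped both others. Gpnmb had 102.5 CPM in UVB, 145 in anagen and 65.6 in telogen, with anagen above both others and the intervals of UVB and telogen overlapping. Pmel had 383 CPM in UVB, 405 in anagen and 349 in telogen, and Mlana had 153, 157 and 134 in the same order of conditions. For both genes the intervals of all 3 conditions overlapped. Scaled to the length of the window, Pmel, whose window holds features of its neighbours, had the highest level in each condition (13.5 CPM per kb in UVB, 14.3 in anagen and 12.3 in telogen) and Gpr143 the lowest (0.978, 2.47 and 1.65).

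**Figure D1:**
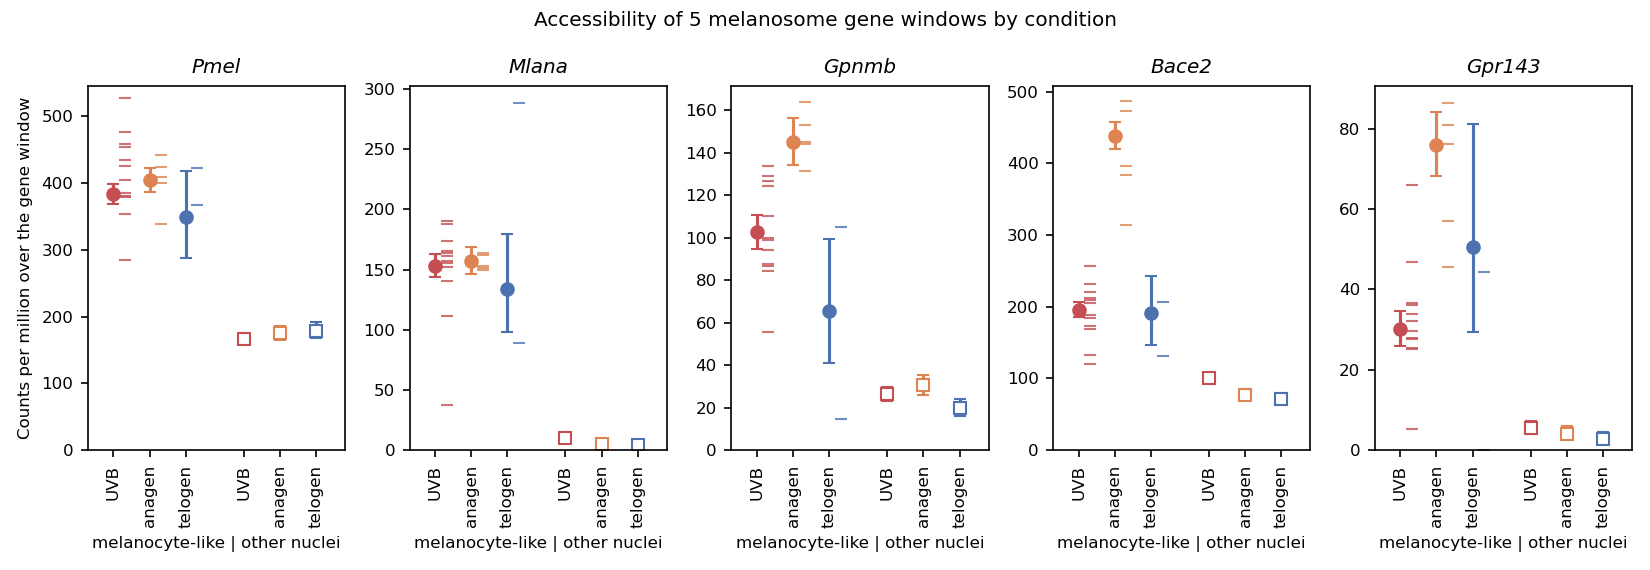
CPM over the window of each gene (vertical axis) in melanocyte-like nuclei (filled circles) and in all other nuclei (open squares) of the UVB, anagen and telogen conditions, with 95% Poisson intervals for counting error. Short dashes beside the circles give the tag numbers with at least 50 melanocyte-like nuclei, which are not samples; anagen stands above UVB and telogen for Bace2, and the other nuclei are far below for Mlana and Gpr143.

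A member was called different between conditions where the ratio of CPM reached 1.5 in either direction. For UVB over anagen, 2 of the 5 were lower and 0 higher in UVB, against 23.2% of 14968 genes lower and 16.5% higher at the same fold. Bace2 had a ratio of 0.447 (95% interval 0.417 to 0.480) and Gpr143 one of 0.396 (0.331 to 0.472). Gpnmb, at 0.707 (0.635 to 0.787), did not reach the fold, and Pmel (0.947, 0.892 to 1.01) and Mlana (0.973, 0.884 to 1.07) had intervals that held 1. All 5 ratios were below 1, with a median log2 ratio of -0.50, against -0.05 for all genes compared.

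For anagen over telogen, 2 of the 5 were higher in anagen and 0 lower, against 27.7% of 13846 genes higher and 21.1% lower. The ratio was 2.30 (1.79 to 3.00) for Bace2 and 2.21 (1.45 to 3.55) for Gpnmb. Gpr143 was just short of the fold at 1.499 (0.923 to 2.60), and Pmel (1.16, 0.962 to 1.41) and Mlana (1.17, 0.867 to 1.62) were close to 1. In the comparison of UVB with telogen, Gpnmb was higher in UVB at 1.56 (1.02 to 2.51) and Gpr143 lower at 0.593 (0.361 to 1.04), against 17.9% of 13878 genes higher and 15.3% lower. Pmel (1.10, 0.913 to 1.34), Mlana (1.14, 0.845 to 1.57) and Bace2 (1.03, 0.799 to 1.34) stood close to 1. The telogen values rest on few nuclei. Of the 220 melanocyte-like telogen nuclei, 52 had a count in the Pmel window, 27 in Bace2, 22 in Mlana, 11 in Gpnmb and 8 in Gpr143. The comparisons share their conditions in pairs, so they are not independent of each other.

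Pmel could not be read as 1 locus, because its annotated body (chr10:128695888-128720238) encloses that of Cdk2, a cell cycle kinase, and meets Rab5b, a GTPase of early endosomes, and Dgka, a lipid kinase, at its ends. Every Pmel value rests on this RefSeq GRCm38.p6 range, and a narrower range for Pmel would leave features out. Of its 25 features 18 also lay in the window of a neighbour, and these held 97.3% of the Pmel counts of melanocyte-like nuclei in UVB, 91.9% in anagen and 98.3% in telogen. The strongest feature, chr10:128696184-128696684, lay across the end of Rab5b and had 142 CPM in UVB, 94.6 in anagen and 107 in telogen. Other nuclei had 104 CPM in UVB, 102 in anagen and 105 in telogen there. Melanocyte-like over other nuclei gave 1.36 (1.25 to 1.49) in UVB, 0.927 (0.818 to 1.05) in anagen and 1.02 (0.708 to 1.44) in telogen. The next strongest, chr10:128699692-128700192 inside the Cdk2 body, had 80.0 CPM in UVB, 65.9 in anagen and 89.4 in telogen. There melanocyte-like nuclei exceeded the others 12.1-fold (9.33 to 16.0) in UVB, 11.9-fold (8.25 to 17.9) in anagen and 16.2-fold (9.31 to 28.3) in telogen. A feature in no other gene body, chr10:128706777-128707277, had 30.05, 36.8 and 29.8 CPM in the same order, and exceeded other nuclei 13.9-fold in UVB and 20.7-fold in anagen. The window thus mixed a stretch open in nuclei of both kinds with stretches open mainly in melanocyte-like ones.

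Taken by stretch, the 3 features in the Rab5b body together gave melanocyte-like over other ratios of 1.33 in UVB, 0.994 in anagen and 1.07 in telogen. The 10 in the Cdk2 body gave 4.52, 4.01 and 3.52. The 11 in no other gene body gave 5.82 (4.74 to 7.20) in UVB, 8.54 (6.77 to 10.9) in anagen and 4.27 (2.33 to 7.44) in telogen. The conditions also differed by stretch. These 11 features had 70.3 CPM in UVB, 125 in anagen and 50.7 in telogen. UVB over anagen was 0.564 (0.498 to 0.638) there and anagen over telogen was 2.46 (1.52 to 4.25). One of them, chr10:128706020-128706520, had 18.2 CPM in UVB, 32.4 in anagen and 2.98 in telogen, the last from a single count, so that UVB over telogen was 6.10 with an interval of 1.07 to 243. In the Cdk2 body the ratios were 0.956 (0.869 to 1.05) for UVB over anagen and 0.959 (0.728 to 1.28) for anagen over telogen. The Rab5b stretch went the other way, with 161 CPM in UVB and 120 in anagen, a ratio of 1.335 (1.205 to 1.48), and 128 CPM in telogen. The near-level whole of the Pmel window between UVB and anagen thus summed a stretch that was higher in UVB, one that was level and one that was lower in UVB.

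Bace2 (chr16:97356728-97442936) is the longest of the 5, at 86.2 kb, and its 56 features shared no neighbour. Its strongest feature lay inside the gene, 31.4 kb from the lower end (chr16:97387900-97388400), with 50.4 CPM in UVB, 52.9 in anagen and 41.7 in telogen. The next, 53.25 kb from that end, had 23.7 CPM in UVB, 29.9 in anagen and 29.8 in telogen, and the feature on the lower end had 21.9, 24.3 and 17.9. These main features differed little, with UVB over anagen of 0.952 (0.806 to 1.13), 0.793 (0.628 to 1.00) and 0.902 (0.701 to 1.16). The anagen excess lay in weaker features along the gene. Of 27 features with at least 30 counts in UVB and anagen together, 22 were at least 1.5-fold lower in UVB and 0 higher, against 41.8% lower and 22.9% higher of 68826 features compared. A feature 1.56 kb from the lower end had 6.47 CPM in UVB, 25.7 in anagen and 11.9 in telogen, the last from 4 counts. Its UVB over anagen ratio was 0.2515 (0.173 to 0.360). Features that reach the count minimum only through anagen had to be lower in UVB, so these counts describe the gene and support nothing further.

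Gpr143 (chrX:152781921-152808651) had 11 features in its window and the lowest counts. A single feature, on the lower end (chrX:152781687-152782187), held 62.6% of its counts in UVB, 34.7% in anagen and 64.7% in telogen, with 18.8, 26.4 and 32.8 CPM. It was 0.713 (0.5515 to 0.922) in UVB over anagen. The 10 features farther in had 11.25 CPM in UVB, 49.6 in anagen and 17.9 in telogen, and their ratio of UVB over anagen was 0.227 (0.172 to 0.296). The receptor gene thus differed along its body more than at its end, on 73 counts in UVB, 237 in anagen and 6 in telogen.

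Gpnmb (chr6:49036518-49058182) was read mainly at its start. The feature on the promoter printed above, chr6:49036283-49036783, had 49.9 CPM in UVB, 47.5 in anagen and 17.9 in telogen, from 324, 227 and 6 counts. UVB and anagen were alike there, at 1.05 (0.885 to 1.25), and both stood above telogen, by 2.79-fold and 2.66-fold. The 12 features more than 1 kb from the gene ends had 17.9 CPM in UVB, 51.7 in anagen and 14.9 in telogen, so that UVB lay with telogen and not with anagen. UVB over anagen was 0.346 (0.275 to 0.433) over these features and 0.907 (0.799 to 1.03) over the 5 near the ends. The telogen counts behind these values were 5 and 17.

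Mlana (chr19:29697541-29708447) had 13 features and was carried by a pair of them. The one 5.65 kb inside the gene (chr19:29702939-29703439) had 83.8 CPM in UVB, 62.1 in anagen and 71.5 in telogen, which was 54.8%, 39.55% and 53.3% of the Mlana counts. The one on the lower end (chr19:29697228-29697728) had 37.6, 31.0 and 44.7 CPM. UVB over anagen was 1.35 (1.17 to 1.56) at the inner feature and 1.21 (0.986 to 1.50) at the end, neither past the fold. The weaker features went the other way. The 10 features below the 3 strongest had 22.8 CPM in UVB, 48.3 in anagen and 5.96 in telogen, the last from 2 counts, and UVB over anagen was 0.472 (0.381 to 0.583). Of 11 Mlana features compared, 6 were at least 1.5-fold lower in UVB and 0 higher, against 41.8% lower and 22.9% higher of 68826 features. Mlana was the member that most set melanocyte-like nuclei apart, as given below.

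**Figure D2:**
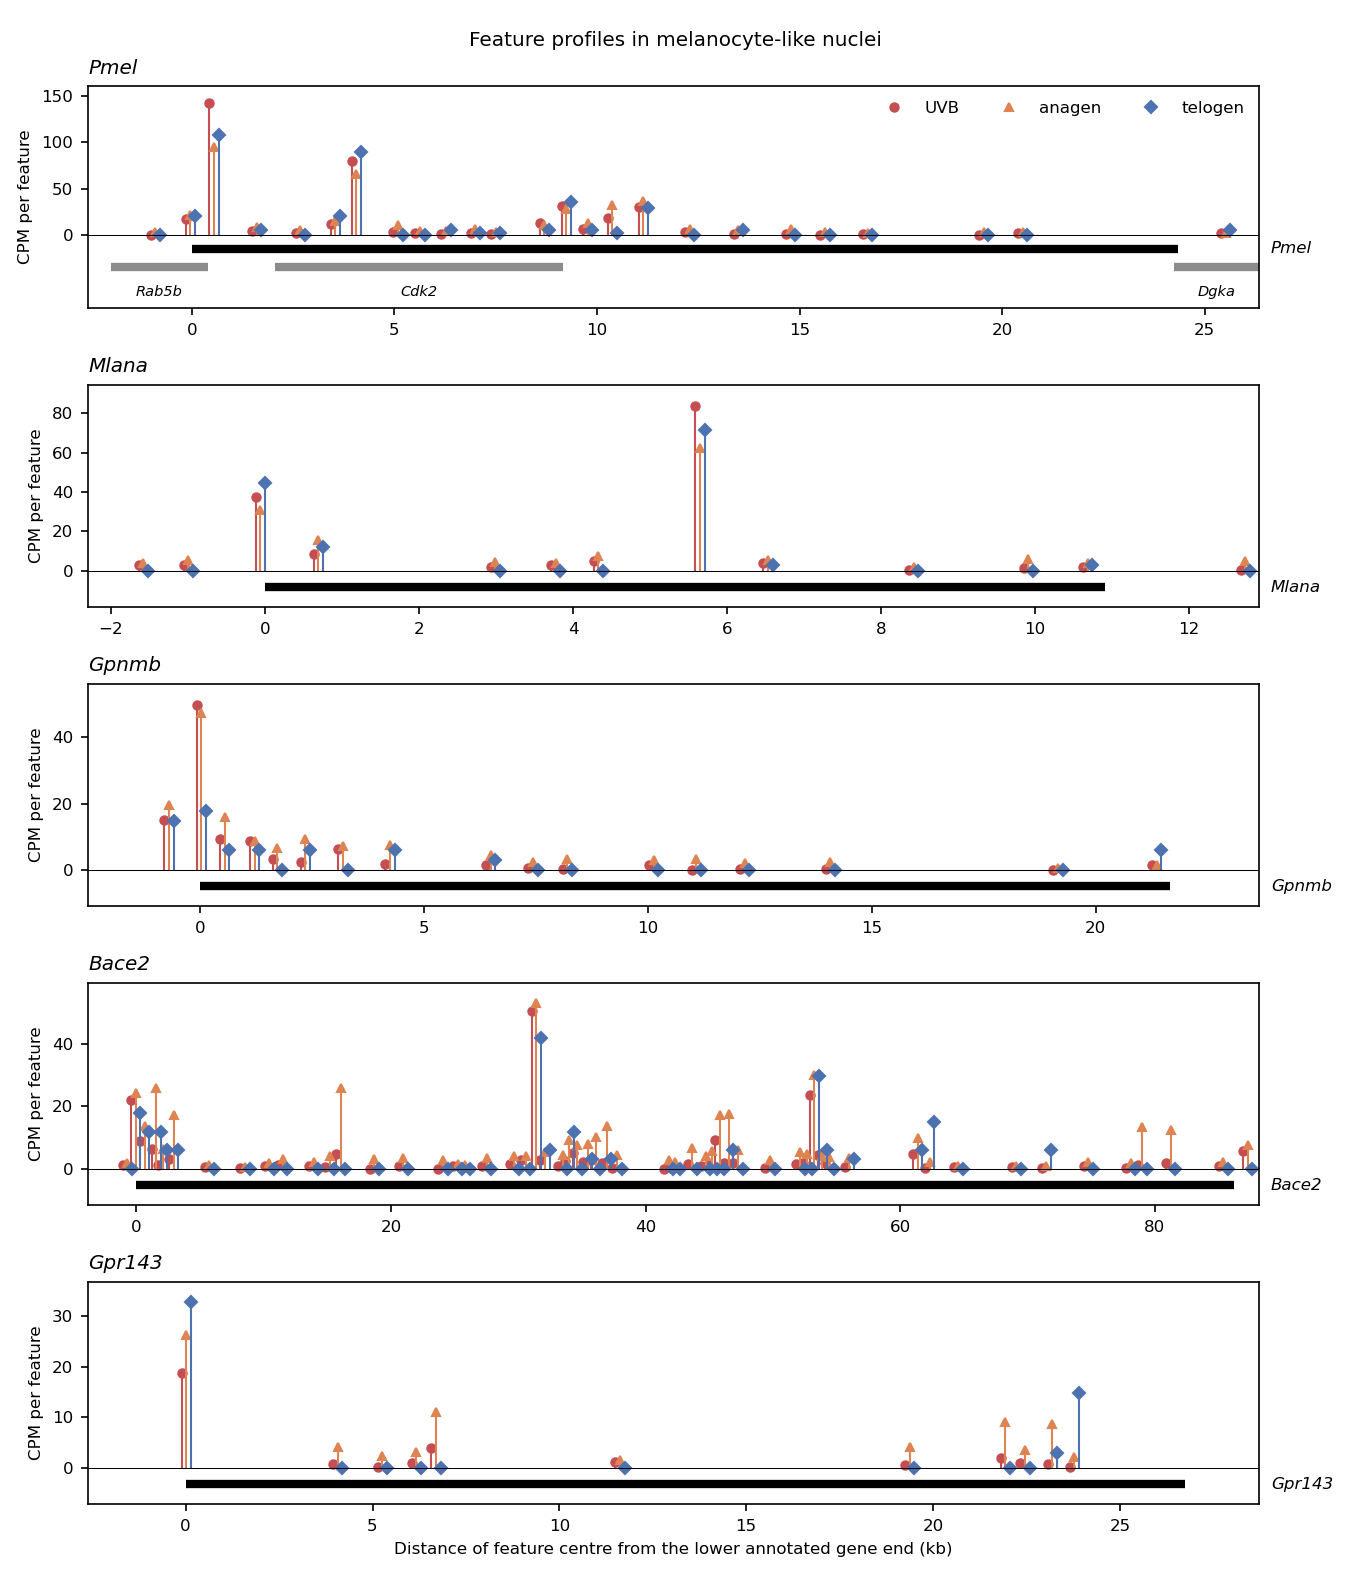
CPM of each feature in melanocyte-like nuclei of UVB (circles), anagen (triangles) and telogen (diamonds), drawn side by side against the distance in kb of its centre from the lower end of the annotated gene. Black bars are the genes and grey bars the bodies of neighbours of Pmel; Bace2 and Gpr143 show weak anagen features along the body, whereas the strongest Bace2 feature is level at 50.4, 52.9 and 41.7 CPM.

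Over the features of all 5 genes in melanocyte-like nuclei, 48 of 70 compared were lower and 1 higher in UVB than in anagen, against 41.8% and 22.9% of 68826 features. Anagen over telogen gave 17 of 50 higher and 0 lower, against 25.7% and 21.3% of 43752 features. UVB over telogen gave 4 of 31 higher and 7 lower, against 21.5% and 26.2% of 39192. For every member, features that pass the count minimum only through the condition where they are high had to differ, so these counts are a description.

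Lower ratios away from the gene ends were also seen across the genome. Over all genes, features within 1 kb of a gene end had a median UVB over anagen ratio of 1.10 and features farther away one of 0.702, with 15.5% and 47.4% of genes at least 1.5-fold lower in UVB. In anagen 36.5% of the counts of melanocyte-like nuclei lay within 1 kb of a gene end, against 44.0% in UVB and 44.55% in telogen. Set against this, Bace2 (0.405, 0.375 to 0.438), Gpnmb (0.346) and Gpr143 (0.227) had lower ratios away from their ends than the median gene, Pmel (0.783, 0.726 to 0.844) and Mlana (1.06, 0.939 to 1.20) higher ones. Near the ends, Bace2 (0.774, 0.645 to 0.928), Gpr143 (0.713), Mlana (0.841, 0.717 to 0.986) and Gpnmb (0.907) were below the median gene and Pmel (1.325, 1.20 to 1.47), whose end lies in Rab5b, was above it. For anagen over telogen the median gene was at 0.9125 near ends and 1.295 farther away, and Gpnmb (1.84 and 3.47) and Bace2 (1.67 and 2.41) were above both. Over all nuclei this share was 40.3% in UVB, 37.7% in anagen and 42.5% in telogen. The part of this share in the member ratios was not tested.

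**Figure D3:**
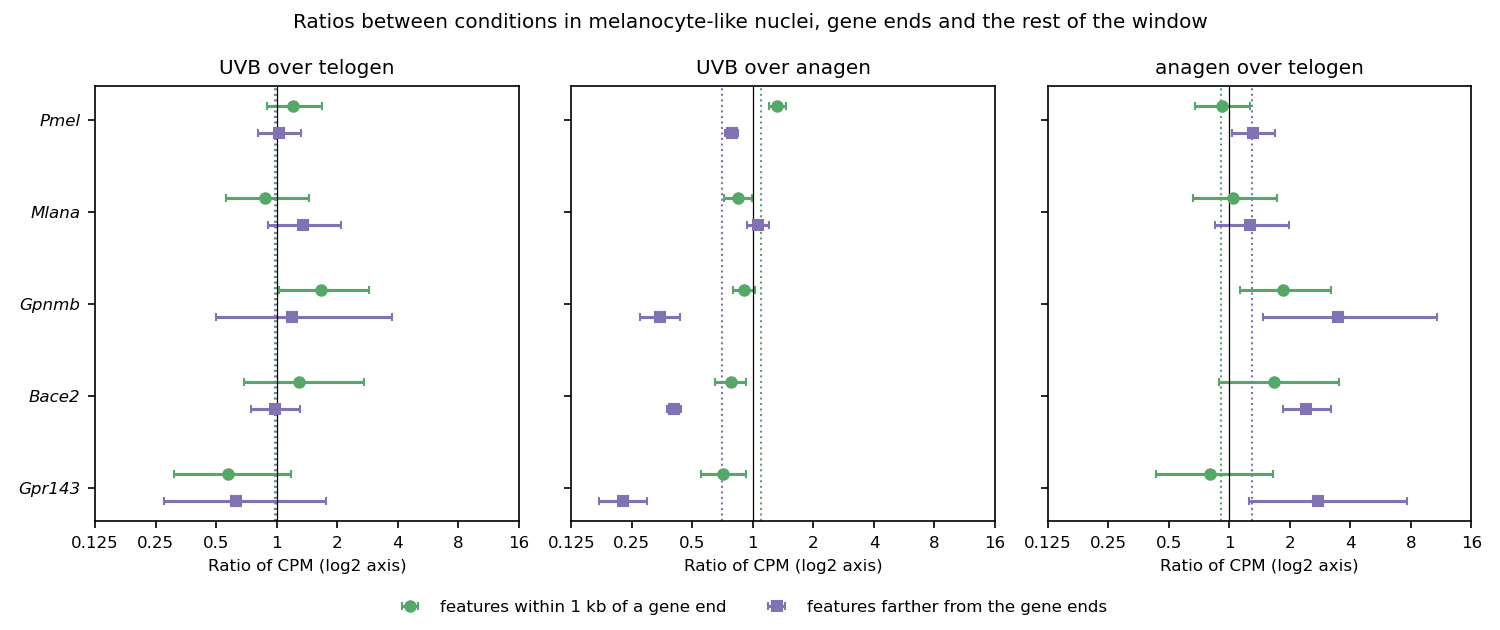
Ratio of CPM between conditions in melanocyte-like nuclei (horizontal, log2 axis) for the features of each gene within 1 kb of a gene end (circles) and farther away (squares), with 95% counting intervals. Dotted lines give the median over all genes for the same features; for UVB over anagen the squares of Gpnmb, Bace2 and Gpr143 lie at 0.346, 0.405 and 0.227, left of the dotted line at 0.702.

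The ratios depended on which of the 2 melanocyte-like clusters was taken. Within anagen, cluster 6 over cluster 1 gave 2.16 (1.80 to 2.62) for Bace2, 1.75 (1.30 to 2.40) for Gpnmb, 1.62 (1.09 to 2.495) for Gpr143, 1.37 (1.06 to 1.80) for Mlana and 1.26 (1.08 to 1.48) for Pmel. Within cluster 1, UVB over anagen was 0.886 (0.733 to 1.08) for Bace2, 1.19 (0.886 to 1.63) for Gpnmb and 0.606 (0.404 to 0.945) for Gpr143, each nearer to 1 than in the whole class. It was 1.16 (0.993 to 1.35) for Pmel and 1.29 (1.00 to 1.68) for Mlana, both farther from 1 than in the class. Anagen over telogen was 1.10 (0.808 to 1.52), 1.295 (0.767 to 2.25) and 0.943 (0.495 to 1.84) for the same genes. In cluster 1, Gpr143 was thus past the fold for UVB over anagen, whereas Bace2 and Gpnmb were not. UVB over telogen was 1.54 (1.01 to 2.475) for Gpnmb and 0.572 (0.3475 to 1.00) for Gpr143. Cluster 6 held too few UVB and telogen nuclei to compare in the same way. Its 39 UVB nuclei gave UVB over anagen ratios of 0.722 (0.559 to 0.920) for Bace2, 0.423 (0.224 to 0.729) for Gpnmb and 0.4998 (0.214 to 0.996) for Gpr143, the last on 8 UVB counts. Clusters were found in the same nuclei, so their differences are a description.

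Across all sorted nuclei the members were higher in UVB and in anagen than in telogen. Against telogen, 4 of the 5 were at least 1.5-fold higher and 0 lower in UVB, where 9.07% of 16292 genes were higher and 16% lower. The ratio was 5.31 (4.14 to 6.92) for Mlana, 2.67 (1.82 to 4.04) for Gpr143, 2.49 (2.06 to 3.045) for Gpnmb, 1.75 (1.58 to 1.95) for Bace2 and 1.335 (1.245 to 1.43) for Pmel. For anagen over telogen the same number passed and 0 were lower, against 12.9% of 16073 genes higher and 16.3% lower, with 6.45 (4.445 to 9.69) for Gpr143, 5.925 (4.60 to 7.74) for Mlana, 3.65 (3.01 to 4.46) for Gpnmb, 3.08 (2.77 to 3.425) for Bace2 and 1.48 (1.37 to 1.59) for Pmel. For UVB over anagen, Bace2 (0.569, 0.538 to 0.603) and Gpr143 (0.414, 0.351 to 0.487) were lower in UVB and 0 members higher, against 13% of genes lower and 10.2% higher. The share of melanocyte-like nuclei also differed, 45.05% in UVB and 29.0% in anagen against 10.8% in telogen. A sum over all nuclei cannot tell more nuclei of a class from a more open locus in each.

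Melanocyte-like nuclei were the class with the highest CPM for all 5 members in all 3 conditions, among classes with at least 50 nuclei. How far they stood above the rest differed by gene. All 5 were at least 1.5-fold above the other nuclei in each condition, against 17.4% of genes in UVB, 25% in anagen and 18.7% in telogen. Mlana exceeded other nuclei 15.8-fold (12.75 to 19.7) in UVB, 32.7-fold (22.3 to 49.95) in anagen and 31.2-fold (18.2 to 55.2) in telogen. Gpr143 did so 5.50-fold (4.04 to 7.595) in UVB, 19.4-fold (12.6 to 31.3) in anagen and 19.1-fold (8.72 to 42.7) in telogen. For these membrane proteins the other nuclei were low, at 9.70, 4.81 and 4.29 CPM for Mlana and 5.47, 3.92 and 2.66 for Gpr143. In UVB, Gpr143 was 3.115-fold (2.16 to 4.63) above its next class, keratinocyte-like nuclei at 9.65 CPM. Dct, whose promoter drove the label, gave 7.19-fold, 9.625-fold and 15.0-fold.

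Gpnmb, Bace2 and Pmel were also open in other classes. Gpnmb exceeded other nuclei 3.91-fold (3.38 to 4.54) in UVB, 4.76-fold (4.02 to 5.665) in anagen and 3.31-fold (1.98 to 5.29) in telogen. In telogen its next class, fibroblast-like nuclei at 46.0 CPM, lay within counting error, with a ratio of 1.43 (0.792 to 2.52). Bace2 stood 1.96-fold (1.80 to 2.13), 5.66-fold (5.10 to 6.29) and 2.67-fold (2.015 to 3.50) above. Keratinocyte-like nuclei came next for Bace2 in every condition, with 166 CPM in UVB, 161 in anagen and 139 in telogen. Melanocyte-like over keratinocyte-like nuclei gave 1.18 (1.07 to 1.30) in UVB, 2.72 (2.19 to 3.42) in anagen and 1.37 (1.02 to 1.82) in telogen. Pmel stood 2.30-fold (2.16 to 2.45), 2.31-fold (2.14 to 2.50) and 1.95-fold (1.59 to 2.36) above other nuclei. Its next class was T cell-like in UVB and Schwann-like in anagen and telogen, and in telogen the ratio over Schwann-like nuclei was 1.13 (0.792 to 1.65). The window of Cdk2 gave almost the same values as Pmel, 2.29-fold, 2.16-fold and 1.945-fold, as both draw on the same features.

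**Figure D4:**
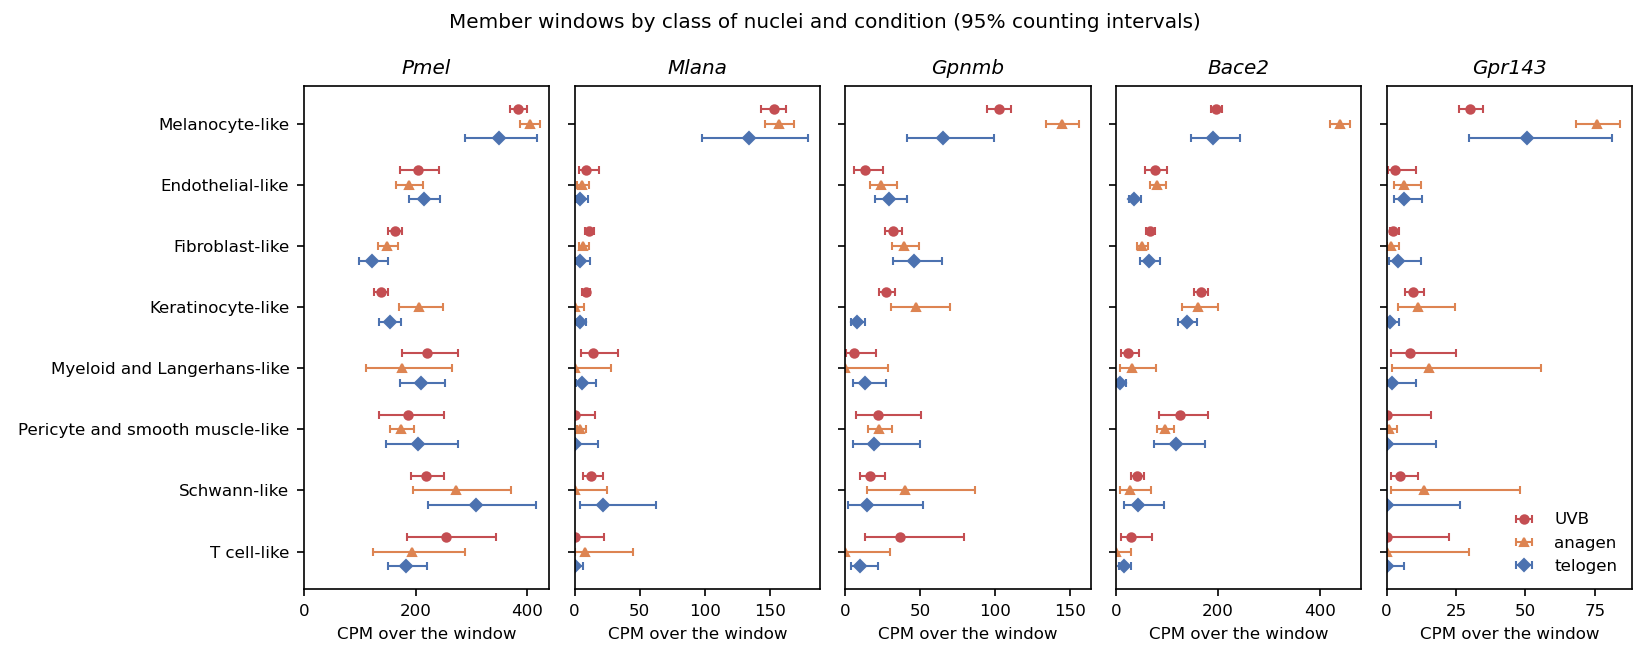
CPM over the window of each gene (horizontal) by class of nuclei (rows) in UVB (circles), anagen (triangles) and telogen (diamonds), with 95% Poisson intervals for counting error. Mlana and Gpr143 are low outside melanocyte-like nuclei, though Gpr143 has 9.65 CPM in keratinocyte-like nuclei of UVB. Bace2 reaches 166, 161 and 139 CPM in keratinocyte-like nuclei.

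Deeper nuclei show more open features, so nuclei were also thinned to 1000 counts each, which left out 451 UVB, 141 anagen and 63 telogen melanocyte-like nuclei as too shallow. Bace2 was then open in 13.5% (exact binomial 95% interval 12.2% to 14.9%) of UVB, 27.2% (24.4% to 30.2%) of anagen and 10.8% (6.44% to 16.8%) of telogen nuclei. Before thinning the shares were 18.1%, 47.2% and 12.3%. Bace2 was highest in anagen both before and after thinning. Gpnmb was open in 6.96% (5.99% to 8.03%), 10.9% (8.955% to 13.0%) and 3.185% (1.04% to 7.275%) after thinning and in 10.4%, 22.5% and 5% before. Gpr143 was open in 2.08% (1.56% to 2.72%), 5.91% (4.49% to 7.60%) and 3.185% (1.04% to 7.275%), against 3.49%, 15.2% and 3.64% before. Mlana (11.5%, 11.2% and 8.92%) and Pmel (23.5%, 26.9% and 22.3%) had overlapping intervals. In other nuclei the thinned share of Mlana was 0.5795% in UVB, 0.391% in anagen and 0.277% in telogen, and that of Bace2 was 7.32%, 4.80% and 5.81%.

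Barcode names carry tag numbers that the labels do not explain, and these give a view of spread within a condition. At least 50 melanocyte-like nuclei were present in 12 tag numbers of UVB, 5 of anagen and 2 of telogen. Bace2 ran from 120 to 257 CPM (median 197) over the UVB tag numbers and from 313.5 to 487 (median 396.5) over those of anagen, with 131 and 207 in telogen. The anagen range did not overlap the others. Gpnmb ran from 55.5 to 134 CPM (median 99.4) in UVB and from 131.5 to 164 (median 145) in anagen, with 14.8 and 105 in telogen. Gpr143 ran from 5.36 to 66.1 (median 30.9) in UVB and from 45.5 to 86.3 (median 76.2) in anagen, with 0 and 44.4 in telogen. For both genes the UVB range overlapped those of anagen and telogen, whereas anagen lay above telogen, narrowly for Gpr143. Pmel (285 to 527 in UVB, 339 to 442 in anagen, 367 and 422 in telogen) and Mlana (37.8 to 191, 150 to 164, 88.9 and 288) overlapped throughout.

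Genes of PMEL processing and sorting were examined as a list of 15, of which 14 had enough counts. For UVB over anagen 4 were lower and 1 higher in UVB, with a median log2 ratio of -0.43, and for anagen over telogen 7 were higher and 2 lower in anagen, with a median of 0.58. Medians over all genes were -0.05 and 0.05. Of all genes, 23.2% were lower and 16.5% higher in UVB than in anagen, and 27.7% higher and 21.1% lower in anagen than in telogen, which is also the background for the lists that follow. Kif13a, a kinesin that carries cargo to melanosomes, had 0.4415 (0.401 to 0.486) for UVB over anagen and 2.12 (1.54 to 3.01) for anagen over telogen. Cd63, a tetraspanin that sorts PMEL in the organelle, had 0.649 (0.580 to 0.727) and 1.61 (1.11 to 2.43). Bace1, the relative of Bace2, had 0.271 (0.234 to 0.313) and 12.25 (4.76 to 45.1), the second on 698 anagen counts and 4 telogen counts. Pcsk6, a proprotein convertase, went the other way, with 3.00 (2.38 to 3.82) and 0.237 (0.1525 to 0.378). Furin, another convertase, did not reach the fold in either, with 0.810 (0.705 to 0.931) and 1.06 (0.7095 to 1.64). Between UVB and telogen 2 of the list were higher in UVB, 0 were lower and the median was 0.07, against 17.9% of all genes higher and 15.3% lower.

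Other melanosome and pigment genes formed a list of 18. Of these, Tyr, Tyrp1, Dct, Oca2, Slc45a2, Slc24a5, Trpm1 and Mc1r were also markers used to name the melanocyte-like clusters. Values of this list are thus not independent of how the class was named. In UVB over anagen 8 were lower in UVB and 0 higher, with a median log2 ratio of -0.39, and for anagen over telogen 9 were higher in anagen and 0 lower, with a median of 0.56. The shares of all genes were 23.2% lower and 16.5% higher, and 27.7% higher and 21.1% lower. Oca2, a melanosomal transporter, had ratios of 0.135 (0.120 to 0.1515) and 4.815 (3.30 to 7.33). Trpm1, a cation channel gene, had 0.263 (0.247 to 0.280) and 4.33 (3.37 to 5.66). Tyr, the rate-limiting enzyme of pigment synthesis, had 0.568 (0.5155 to 0.626) and 3.525 (2.24 to 5.88). Dct (1.045, 1.00 to 1.09, and 0.987, 0.8775 to 1.11) and Slc45a2 (0.714, 0.637 to 0.800, and 1.40, 0.977 to 2.08) did not pass the fold, as the whole windows of Pmel and Mlana did not. UVB over telogen had 2 higher and 1 lower, with a median of 0.09.

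Regulators of the MITF family and lineage factors, a list of 13, gave 5 lower and 1 higher for UVB over anagen (median log2 ratio -0.41) and 6 higher and 1 lower for anagen over telogen (median 0.49), beside the same shares of all genes. In UVB over telogen 12 were measured, 0 were higher and 1 lower, with a median of 0.08. Mitf itself was near 1 in both, at 0.987 (0.940 to 1.04) and 0.973 (0.845 to 1.125). Kit, the receptor of stem cell factor, had 0.530 (0.4985 to 0.562) and 2.20 (1.76 to 2.77), and Sox10 had 0.566 (0.513 to 0.624) and 1.75 (1.27 to 2.49). Mitf, Kit, Sox10, Pax3 and Ednrb of this list were also markers used to name the clusters. The 14 paralogs and partners of the members gave 3 lower and 2 higher for UVB over anagen and 3 higher and 4 lower of 13 for anagen over telogen, with medians of -0.29 and 0.07, beside the same shares of all genes. In UVB over telogen 1 of 13 was higher and 3 lower, with a median of -0.12. Of 15 housekeeping genes 13 were measured. Between UVB and telogen 0 passed the fold (median -0.09), for UVB over anagen 1 was higher and 0 lower (median 0.19) and for anagen over telogen 1 was higher and 3 lower (median -0.28).

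Likeness of pattern was measured as Pearson's r of log2(CPM + 1) over the 23 class and condition sums with at least 50 nuclei, which share libraries and depth, among about 12044 genes. Pmel was most like Synpr (r = 0.894), Selenof, Megf10, Bcas3 and Nebl (0.850). Mlana was most like Mybphl (0.862), then Slc45a2 (0.843), a melanosomal transporter, then Fstl4, Olfr983 and Mecom (0.768). Gpnmb was most like Mnat1 (0.876), Sdc2, Daam1, Fah and Rnf144a (0.866). Bace2 was most like Cttnbp2 (0.8485), Prickle2, Tanc1, Nhsl1 and Tnfrsf19 (0.789). Gpr143 was most like Slc35d1 (0.826), Fmn1, Ldlrad3, Uxs1 and Dnajc6 (0.775). Between members r ran from 0.22 for Pmel with Bace2 to 0.579 for Mlana with Gpr143, so no member was among the genes most like another.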

How the data were processed

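Single-nucleus ATAC-seq counts were used as the authors deposited them: whole-number counts per 500 bp feature and barcode, 1 matrix per condition. The submitters' processing notes name mm10 (GRCm38), MACS2, Bowtie2 and SAMtools. The counting method, transposase shifting, nucleus filters and doublet removal were not given in the sources used here. The highest count was 4, and the value 2 made up 62.6% of UVB, 59.1% of anagen and 61.9% of telogen entries, so counts come in pairs and intervals are too narrow. Each barcode was counted once per condition; second copies were 62 in UVB (0.937%), 1721 in anagen (31.4%) and 543 in telogen (21.0%). The 2 technical replicates of UVB share 1 matrix, so UVB was 1 sample.

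Gene ranges came from RefSeq GRCm38.p6 (21896 protein-coding genes). Nuclei were clustered on 163525 features by TF-IDF, 30 components (1 that followed depth left out) and Leiden at resolution 0.6, without member features; doublets were not called. A cluster was named from at least 3 markers at 2-fold. Ratios of CPM have exact conditional binomial 95% intervals, and CPM exact Poisson intervals. A gene or feature was compared with at least 30 counts over both conditions; a count of 0 was replaced by 3 counts over the condition. The intervals were tested on simulated Poisson counts only. Such counts do not come in pairs, so that test cannot show how the intervals hold for the deposited counts. Named were all members, their features near gene ends and 3 strongest, neighbours, the 5 genes most alike, and list genes; other features, such as the 1 at chr10:128706020-128706520, and list examples were chosen after their values were seen. Members and lists were chosen with earlier results of these data known. Tools were leidenalg 0.10.2, igraph 0.11.9, scikit-learn 1.9.0, scipy 1.17.1, pandas 2.3.3, numpy 2.4.6, matplotlib 3.10.9 and Python 3.11.15.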

Additional observations from a re-analysis of the deposited data

How the results depend on the processing

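Counting error and the 220 telogen nuclei limit every value against telogen, and no alternative replaces a second sample. No paired analysis was possible because each condition was 1 sample and the 2 UVB replicates shared 1 matrix. Of 485 single-gene values under the alternatives, 340 stayed within the interval of the reported value, 139 moved and 6, all past the fold before, reversed. The cause was not tested except where the alternative's construction shows it.

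In melanocyte-like nuclei, 2 members passed the fold in each comparison. For UVB over telogen this became 1 with second copies included, 1 with nuclei thinned to 1000 counts, 0 at 2-fold, 4 among nuclei with counts in 3 or more melanocyte markers (147 in telogen, of any class) and, in an alternative chosen after seeing the data, 1 without features near gene ends. For UVB over anagen it became 0 with gene ends only and 1 without cluster 6. Gpnmb passed as well without features near gene ends (0.346), and Pmel with features of 1 gene window only (0.314). For anagen over telogen it became 0 without cluster 6 and 5 among nuclei with 3 or more markers. It became 4 in either direction when clustered without UVB, where 2 telogen nuclei were left. There Gpnmb reversed to 0.367 against a floor, and Mlana (0.582) and Gpr143 (0.192) were also lower in anagen. In this comparison Gpr143 passed as well without features near gene ends (2.77). Pmel did so with features of 1 gene window only (5.51), on few telogen counts. Over all nuclei, UVB over anagen had 2 past the fold, which became 0 with gene ends only, 1 without deep nuclei, 1 at 2-fold and 1 when scaled by the melanocyte markers. Anagen over telogen had 4 higher, which became 2 on that scale, Gpr143 higher (1.51) and Pmel lower (0.346). On it Gpnmb (0.895), Bace2 (0.629) and Gpr143 (0.958) reversed for UVB over telogen, and Gpnmb (0.856) and Bace2 (0.722) for anagen over telogen. Values not past the fold before also crossed 1 and were not counted among the 6. In melanocyte-like nuclei, UVB over anagen was 1.19 for Gpnmb without cluster 6 and 1.325 for Pmel with gene ends only. Mlana and Gpr143 crossed 1 for anagen over telogen when clustered without UVB, as given above. Over all nuclei, Pmel fell below 1 when scaled by the melanocyte markers. It was at 0.479 for UVB over telogen and 0.346 for anagen over telogen.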
